A study of Mus musculus with 14 samples.

Results

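Cytoplasmic ribosomal proteins, together with the ribosomal RNAs, form the small and the large subunit of the ribosome, the machine that translates messenger RNA. Their messages are among the most abundant in a cell, and most begin with a short run of pyrimidines, through which growth signals that pass by the kinase mTORC1 set how much of the message is translated. Activation of a naive T cell is known to raise the production of ribosomes ahead of the first cell division. Described here are 81 such genes of the mouse, 33 of the small and 48 of the large subunit, out of 15036 genes listed in the study. They were taken up with earlier results of these data known, and membership was set by symbol. It covers Rps or Rpl with a number and at most a short suffix, together with Rpsa and the stalk genes Rplp0, Rplp1 and Rplp2. Rpsa encodes a small subunit protein also known as the laminin receptor. All 81 were listed in both of the deposited tables. Rps4l had 3 reads in a single library and was not tested, which left 80 genes with a mean of at least 10 normalized counts in each setting.

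The cells were naive CD8 T cells (CD62L high, CD44 low) sorted from spleens of C57BL/6 mice and activated for 6 h with 1 µg/mL of anti-CD3 bound to the plate and 1 µg/mL of anti-CD28 in solution, which stand in for antigen and costimulation. In one setting the cultures also held 20 ng/mL of recombinant IFN-beta, an interferon of type I, and there were 4 libraries from Morrbid-/- and 4 from wild-type cells. In the other, without interferon, there were 3 Morrbid-/- and 3 wild-type libraries. The gene of Morrbid, a long noncoding RNA, neighbours Bcl2l11. Which part of Morrbid was deleted is not stated in the labels. They do not state whether replicates are separate animals either, so a p-value here measures only how far these samples spread, which may be technical. Values are the deposited normalized counts, each a number of reads divided by 1 size factor per library.

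Recovered reads numbered 5788070 to 7355337 per library with IFN-beta and 1747634 to 2963149 without it. With IFN-beta depth did not overlap between genotypes: libraries labelled Morrbid-/- had 7132515 to 7355337 reads and wild-type ones 5788070 to 6918633. Without IFN-beta the genotypes overlapped, at 1747634 to 2443158 reads in libraries labelled Morrbid-/- and 2360619 to 2963149 in wild type. The part of depth in the genotype calls was not tested. Each setting has a table with its own normalization, and levels are never tested across settings. Without IFN-beta, Morrbid (listed as Gm14005) had 7, 4 and 7 reads in the libraries labelled Morrbid-/-, against 2, 4 and 2 reads in wild type, and it was not analysed here with IFN-beta; these few reads do not show a loss, and every direction below follows the labels. All 9 CD8 T cell markers examined were present in every group. The summed level of the B cell markers reached at most 28.4 with IFN-beta, where the CD8 T cell markers summed to 9336 to 10519, and myeloid, NK, CD4 and erythroid markers each summed to at most 20.6 in any library. These sums cover only the markers that were listed. With IFN-beta those were 2 of 6 for B cells, 1 of 7 myeloid, 1 of 4 NK, 1 of 3 CD4 and 0 of 5 erythroid. Without it they were 2, 6, 4, 2 and 2, and Cd4 itself was listed in neither setting. Mitochondrial 16S rRNA, the large ribosomal RNA of mitochondria (Rnr2), set libraries apart. With IFN-beta it took 9.84%, 9.05%, 9.43% and 10.5% of the reads in libraries labelled Morrbid-/-, against 12.01%, 10.01%, 9.45% and 10.6% in wild type (exact two-sided permutation test, p = 0.229, the smallest possible being 0.0286). Without IFN-beta it took 18.9%, 12.8% and 11.6% in libraries labelled Morrbid-/-, against 18.1%, 16.01% and 12.5% in wild type (p = 0.8 by the same exact test, the smallest possible being 0.1). The genotypes overlapped in both settings.

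Because the pyrimidine run is the feature these genes are best known for, the longest run within 50 bases of the annotated start is shown for the members called with IFN-beta below that had an entry with a run (up to 5 in each direction, by smallest p). Where a gene had several listed starts, the start with the longest run was used, and it can lie inside the gene. Those of Rpl19 and Rpl22 do, since these genes begin at chr11:98022003 and chr4:152324436. Such a run need not be the one that begins the message. Relative to the annotated start, the runs shown begin at positions from -50 (Rpl26) and -39 (Rpl22) to 33 (Rpl19). Each stretch reads 5′ to 3′ on the gene's strand, comes from RefSeq on GRCm38.p6, and has the run of at least 10 C or T bases in capitals. The first 4 were higher in the libraries labelled Morrbid-/-, and the last 5 were lower.
Rplp2 (chr7:141447636-141447665, plus strand): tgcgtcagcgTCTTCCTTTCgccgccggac
Rpl28 (chr7:4792953-4792981, plus strand): cctctcgtgTCTCTCTTTCCgtctccggc
Rpl19 (chr11:98026947-98026973, plus strand): gcccacaagCTCTTTCCTTTCgctgct
Rps12 (chr10:23787182-23787210, minus strand): caccgccggCCTTTTCCCCTgccgccgcc
Rpl22 (chr4:152325679-152325708, plus strand): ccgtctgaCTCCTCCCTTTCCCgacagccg
Rpl15 (chr14:18270968-18270996, minus strand): agaaagCCTTCTTCCTTTCCTCTggcggc
Rpl7a (chr2:26910789-26910817, plus strand): acaaTTCCCTCTTCTTTCTTTCTCCagca
Rpl26 (chr11:68901508-68901537, plus strand): tcccaaccTCCTCTCCCCTTTCgctccgag
Rpl22l1 (chr3:28805499-28805528, plus strand): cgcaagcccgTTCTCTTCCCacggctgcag
Of the 81 genes, 60 had a start in the promoter table used, and 43 of those 60 (71.7%) held such a run on their own strand within 50 bases of the start, against 20.7% of 17492 genes with an entry. The window of 250 bases before to 50 after the start was also searched on both strands: CCGGAAG, the core of an ETS factor site, was in 25 members (41.7%, against 12.9% of all genes), and GGGCGG, the core of an Sp1 site, in 38 (63.3%, against 49.2%). For the runs and both motifs, members and all genes alike counted if any of their listed starts had a match. A match is a description of the letters in the window, not a site shown to act. Among the genes called with IFN-beta, a run was found in 4 of the 4 higher members with an entry and in 7 of the 10 lower ones, and in 32 of 46 that were not called, so genes of both directions carried it.

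The 81 genes together took 2.39%, 2.42%, 2.39% and 2.83% of reads, with IFN-beta, in libraries labelled Morrbid-/-, against 3.03%, 2.76%, 2.44% and 3.11% in wild type. Without IFN-beta they took 4.20%, 3.59% and 3.10% in libraries labelled Morrbid-/-, against 4.70%, 4.35% and 3.55% in wild type. The genotypes overlapped in each setting. Per kilobase of transcript, as means over all libraries with IFN-beta, Rpl13a at 20860 normalized counts, Rplp1 at 17389 and Rpl26 at 16469 stood above Rpsa at 9694. Without IFN-beta Rpsa stood first at 6361 per kilobase, ahead of Rpl13a at 5797, Rpl26 at 5501 and Rplp1 at 5161. Rps27l, a paralogue of Rps27 that p53 induces in human cells, was the lowest tested member in both settings, at 31.4 per kilobase with IFN-beta and 39.0 without it. Next above it were Rpl27 (124) and Rpl37 (127) with IFN-beta, and Rpl37 (70.6) and Rps28 (75.8) without it. These levels carry an uncertainty of their own, since mouse ribosomal protein genes have many processed copies: of the 80 members with a transcript in GENCODE M21, 36 shared more than 50% of their 75-base stretches with transcripts of other genes, the median was 48.0%, and 2 shared none. How reads of such stretches were assigned is not given in the sources used here.

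The summed level of small over large subunit genes, with IFN-beta, was 0.569, 0.542, 0.543 and 0.562 in libraries labelled Morrbid-/-, against 0.532, 0.540, 0.641 and 0.655 in wild type. Without IFN-beta it was 0.699, 0.684 and 0.687 in libraries labelled Morrbid-/-, against 0.684, 0.715 and 0.691 in wild type. Wild-type replicates 3 and 4 with IFN-beta lay above the other libraries of that setting, and these are the same libraries in which Rpsa was at 20092 and 24062 normalized counts, against 15210 and 15208 in the other wild-type replicates.

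Without IFN-beta no ribosomal protein gene passed the test between genotypes in the reported fit. Most had a log2 change slightly below 0 in the libraries labelled Morrbid-/-. Of the 80 genes tested with limma, 0 were higher and 0 lower at an adjusted p under 0.05, where 0.538% of 9290 genes were called higher and 0.0969% lower. edgeR and DESeq2 on the recovered reads also called 0 in each direction. The count depended on the terms of the model. With the 16S share as a covariate 3 members were lower, against 32 of 9290 genes. With the replicate number as a block 24 members were lower, against 75 genes. At an unadjusted p under 0.05, 1 member was higher and 18 were lower by limma, which is 1.25% and 22.5% of the members, against 3.21% and 2.9% of all genes. The log2 change was above 0 in 6 of 80 (7.5%, against 48.6% of all genes) and below 0 in 74, with a median of -0.20 over the members and -0.01 over all genes tested. Small and large subunit genes had nearly the same median, -0.21 and -0.20.

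The members with the smallest p without IFN-beta were these. Rpl30, a large subunit protein, was at 420, 330 and 311 normalized counts in libraries labelled Morrbid-/-, against 505, 536 and 371 in wild type, which differed on the log2 scale by -0.41 (SE 0.13; limma adjusted p = 0.357). Rpl35, which lines the exit of the peptide tunnel, was at 2381, 1676 and 1360 in libraries labelled Morrbid-/-, against 3032, 2622 and 1776 in wild type, a difference of -0.46 (SE 0.16; limma adjusted p = 0.522). Rpl3, which lies near the peptidyl transferase centre, was at 1754, 1510 and 1340 in libraries labelled Morrbid-/-, against 2370, 2065 and 1523 in wild type (-0.36, SE 0.13; limma adjusted p = 0.535). The genotypes overlapped for each of them, and the highest library labelled Morrbid-/- was replicate 1 and the lowest wild-type library replicate 3. In the other direction, Rps27l was at 28.4, 28.8 and 23.5, against 13.4, 16.6 and 23.7 in wild type, from 135 reads in all (0.59, SE 0.29; limma adjusted p = 0.813). Rpl41, which encodes the shortest ribosomal protein, and Rps26 differed by 0.20 and 0.19 (limma adjusted p = 0.887 and 0.908). None of these 6 passed.

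These genotype values moved with the library. The median of the members within each library, as log2 of the normalized count plus 1 minus each gene's mean over the table, was 0.15, -0.06 and -0.36 in replicates 1 to 3 labelled Morrbid-/-, against 0.30, 0.13 and -0.13 in wild type. Replicate 1 of the libraries labelled Morrbid-/- had the highest 16S share and replicate 3 the lowest. Without Morrbid-/- replicate 1, limma called 9 members lower, against 23 of 9300 genes, and the median over the members was -0.30. Without wild-type replicate 3, it called 4 members lower, against 18 of 9296 genes, and the median was again -0.30. Without Morrbid-/- replicate 3 the median was -0.07, and without wild-type replicate 1 it was -0.11. In these cases 0 members were called, where 8 of 9273 and 10 of 9299 genes were lower. In bulk samples, less RNA of a gene per cell and fewer cells that hold it cannot be told apart.

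**Figure D1:**
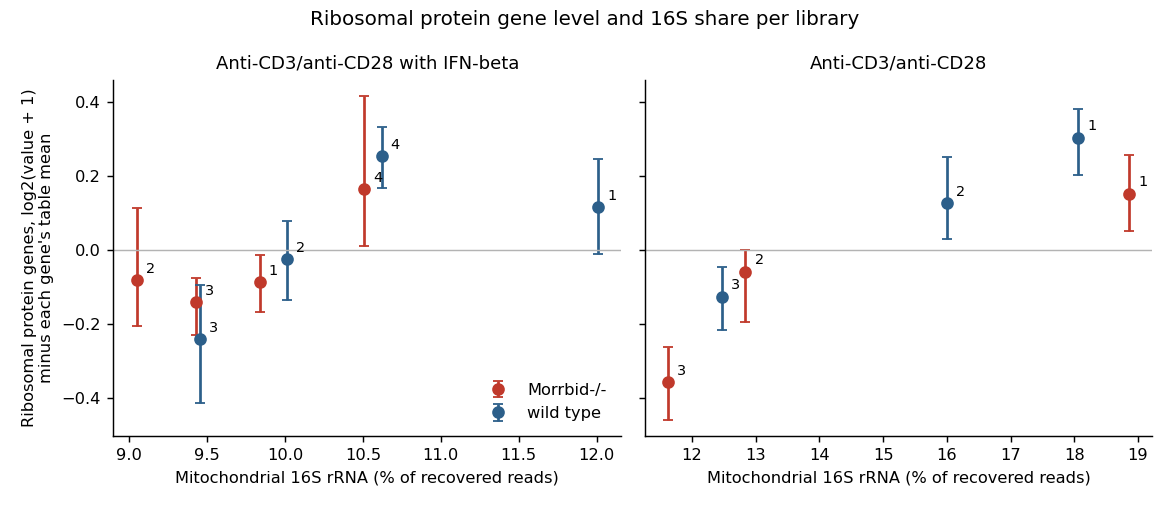
Each point is a library, numbered by replicate, with its share of reads in mitochondrial 16S rRNA on the x axis (percent) and, on the y axis, the median over 80 ribosomal protein genes of log2(normalized count + 1) minus each gene's mean over that table; bars span the quartiles of the genes. Without IFN-beta (right panel) the 3 libraries with a share of at least 16.01% lie above 0 (0.15, 0.30 and 0.13) and the 3 with at most 12.8% lie below it (-0.06, -0.36 and -0.13).

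The 16S share was therefore put into the model as a percent, beside genotype, and a slope fitted for every gene. The slopes use the same libraries and values as the medians above, so they are not a separate test of that pattern. The members also moved together across libraries (median r of 0.86 with their own median), so a count of members is not a count of independent results. Without IFN-beta, 53 of 80 ribosomal protein genes (66.2%) rose with the 16S share at a limma adjusted p under 0.05, and 0 fell, against 2.03% and 0.667% of 9290 genes. The slope was above 0 in 76 of 80, against 50.5% of all genes, with a median of 0.06 log2 units per percentage point of 16S share (0.00 over all genes). At an unadjusted p under 0.05, 64 members (80.0%) rose and 0 fell, against 7.51% and 5.72% of all genes. The 53 consisted of 22 of 32 small subunit genes and 31 of 48 large subunit genes. The 16S reads are part of the same total, and with libraries rescaled to equal totals 34 members rose and 0 fell, while over all genes 86 rose and 489 fell, against 189 and 62 as deposited. With equal totals without mitochondrial rRNA, 45 members and 144 genes rose and 100 genes fell, and with quantile normalization 47 members and 166 genes rose and 90 genes fell.

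Among the steepest were Rpl26, Rps7 and Rpl13a. Rpl26, which in human cells also binds the p53 message, was at 3474, 2178 and 1870 normalized counts in libraries labelled Morrbid-/-, against 4169, 3369 and 2303 in wild type, and its slope was 0.13 (SE 0.01) per percentage point. Rpl13a, which in human monocytes leaves the ribosome to silence messages after interferon-gamma, was at 7242, 4729 and 4237 in libraries labelled Morrbid-/-, against 8170, 7412 and 4627 in wild type (slope 0.12, SE 0.01). For both genes the libraries of high 16S share, replicate 1 labelled Morrbid-/- and wild-type replicates 1 and 2, were above the others. Rps7, of the small subunit, had a slope of 0.13. The slopes of 4 genes lay below 0 and did not pass: Rps27l (-0.03, SE 0.05), Rps29 (-0.02, SE 0.03), Rps28 (-0.01, SE 0.06) and Rps13 (0.00 when rounded, SE 0.02), all of the small subunit. All 48 large subunit genes had a slope above 0.

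This result depends on how the spread of each gene was estimated, on the terms of the model and on single libraries. With the replicate number as a block, 0 members passed, the median slope was 0.02 and 50 of 80 slopes lay above 0. The 16S share fell from replicate 1 to replicate 3 in both genotypes here. A link with the 16S share and a difference by replicate number can therefore hardly be told apart in these libraries. Without the mean-variance trend in limma, 0 of the members and 0 of all genes passed, with 53 members at an unadjusted p under 0.05. edgeR and DESeq2 on the recovered reads called 52 and 47. Leaving out Morrbid-/- replicate 3, Morrbid-/- replicate 1 or wild-type replicate 1 left 24, 28 and 35 called, with a median slope of 0.05, 0.08 and 0.06.

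With IFN-beta the 16S share spanned only 9.05% to 12.01%. Here limma called 0 of 80 members and 0 of 9964 genes in each direction, a share of 0.0%. At an unadjusted p under 0.05, 59 members (73.8%) had a positive and 0 a negative slope, against 4.48% and 4.14% of all genes. The slope was above 0 in 79 of 80, against 49.4% of all genes, with a median of 0.16 per percentage point. edgeR called 0 and DESeq2 11. Without wild-type replicate 3, the unadjusted count was 23 and the median 0.11. Without wild-type replicate 1, the library of highest share, 7 members passed after adjustment and the median was 0.27. Among the smallest p were those of Rpl26 (slope 0.20, SE 0.04; limma adjusted p = 0.111), Rps7 (0.18, SE 0.04; limma adjusted p = 0.142) and Rpl7 (0.16, SE 0.04; limma adjusted p = 0.142). Rpsa was the member with a slope below 0 (-0.02, SE 0.07).

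**Figure D2:**
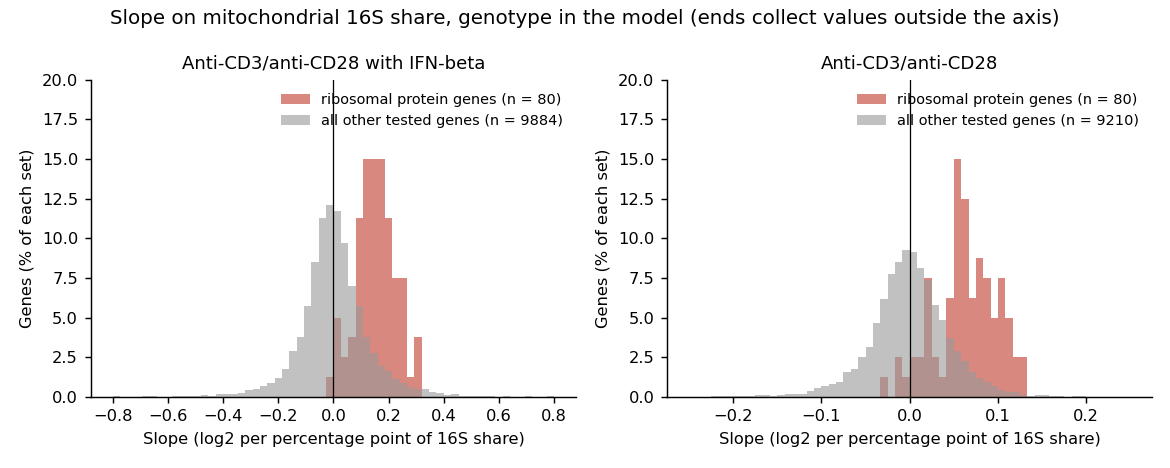
Histograms of the limma slope on the 16S share, in log2 units per percentage point on the x axis, for 80 ribosomal protein genes and all other tested genes, as a percent of each set on the y axis. The ribosomal protein genes lie mostly to the right of 0, with 79 of 80 above it with IFN-beta (left) and 76 of 80 without (right).

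With IFN-beta the genotypes differed at single ribosomal protein genes, and in both directions. In libraries labelled Morrbid-/-, 6 of the 80 were higher and 17 lower by limma, which is 7.5% and 21.2% of the members, against 5.25% and 4.84% of 9964 genes. The 6 higher were Rplp2, Rpl28, Rpl36, Rpl19, Rpl8 and Rps12. Among the 17 lower were Rps14, Rpl22, Rpl3, Rplp1, Rpsa, Rps4x, Rplp0, Rpl15, Rpl30, Rpl7a, Rpl26, Rpl22l1, Rps7, Rps27a and Rpl10. The median over the members was -0.06, against 0.00 over all genes, and 35 of 80 lay above 0 (43.8%, against 50.3% of all genes). By subunit, 1 small and 5 large subunit genes were higher, and 6 small and 11 large were lower. The genotypes did not overlap in 3 of the 6 and in 12 of the 17, where 83.4% of all 523 genes called higher and 86.7% of all 482 called lower did not overlap. Called or not, 3 of the 80 members lay higher without overlap and 13 lower, against 7.58% and 7.6% of all genes. With libraries rescaled to equal totals, 8 members were higher and 14 lower, and the calls over all genes were 730 higher and 344 lower, against 523 and 482 as deposited.

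**Figure D3:**
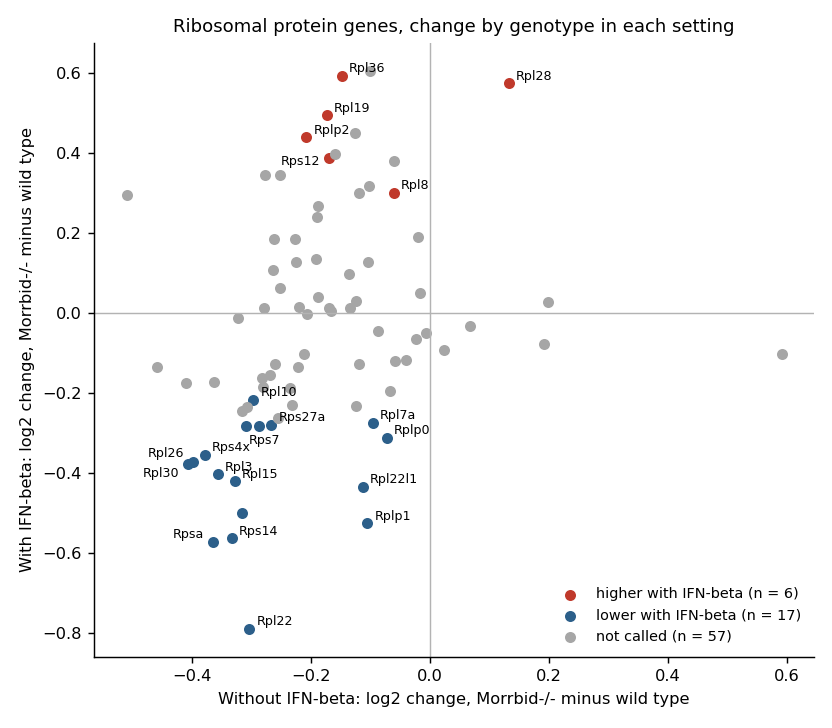
Log2 change of each of 80 ribosomal protein genes, Morrbid-/- minus wild type, without IFN-beta on the x axis and with IFN-beta on the y axis; colours mark the limma calls with IFN-beta. The 6 higher genes lie between 0.30 and 0.59 on the y axis and the 17 lower ones between -0.79 and -0.22, while on the x axis 74 of 80 lie below 0 and none was called.

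The 3 stalk proteins, which form the flexible arm that brings elongation factors to the ribosome, split. Rplp2 was at 3092, 3539, 3019 and 4114 normalized counts in libraries labelled Morrbid-/-, against 2372, 2452, 2339 and 2955 in wild type. Every library labelled Morrbid-/- lay above every wild-type one (log2 change 0.44, SE 0.08; limma adjusted p = 0.000997). Rplp1, its partner in the stalk dimer, was at 7137, 5532, 7752 and 8068 in libraries labelled Morrbid-/-, against 11908, 11097, 9013 and 8909 in wild type, again with no overlap (-0.53, SE 0.09; limma adjusted p = 0.00061). Rplp0, which anchors the dimers, averaged 6367 ± 472 in libraries labelled Morrbid-/- and 7906 ± 556 in wild type (SD, n = 4 each), a change of -0.31 (SE 0.06; limma adjusted p = 0.00137). Rplp0 did not overlap between genotypes, though replicate 4 labelled Morrbid-/- stood at 7072, near the lowest wild-type value of 7206.

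Among the small subunit genes, Rps14, Rpsa and Rps4x fell without overlap. Rps14, whose reduced dose underlies the anaemia of the 5q- syndrome in humans, was at 2414, 2215, 2432 and 2688 in libraries labelled Morrbid-/-, against 4063, 3609, 3437 and 3310 in wild type. The change was -0.56 (SE 0.07; limma adjusted p = 4.75e-06). Rpsa was at 11843, 11708, 11262 and 14626 in libraries labelled Morrbid-/-, against 15210, 15208, 20092 and 24062 in wild type (-0.57, SE 0.10; limma adjusted p = 0.000681). The difference in Rpsa was widest against wild-type replicates 3 and 4. Rps4x, the X-linked form of its protein, averaged 5941 ± 380 in libraries labelled Morrbid-/- and 7612 ± 798 in wild type (SD, n = 4 each; -0.35, SE 0.07). Rps12 was the small subunit gene that rose, at 238, 258, 208 and 284 against 198, 190, 142 and 228 in wild type, with overlap (0.39, SE 0.12; limma adjusted p = 0.047).

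Rpl22 had the largest change of the called members by fold. Rpl22 is an RNA-binding protein of the large subunit that mice need for the development of alpha-beta T cells. It was at 1033, 1015, 1308 and 1765 in libraries labelled Morrbid-/-, against 2561, 2193, 1916 and 2010 in wild type, with no overlap (log2 change -0.79, SE 0.12; limma adjusted p = 7.92e-05). Its paralogue Rpl22l1 was lower as well, at 227, 186, 172 and 208 in libraries labelled Morrbid-/-, against 347, 229, 230 and 276 in wild type (-0.43, SE 0.12; limma adjusted p = 0.0216). The highest library labelled Morrbid-/- and the lowest wild-type library of Rpl22l1 were nearly level. Rpl3 averaged 3454 ± 437 in libraries labelled Morrbid-/- and 4550 ± 303 in wild type (SD, n = 4 each; -0.40, SE 0.07), without overlap. Rpl15, Rpl30, Rpl7a, Rpl26, Rps7, Rps27a and Rpl10, also lower, changed by -0.42 to -0.22.

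Of the 5 higher large subunit genes, Rplp2 had the highest level per kilobase, at 7091 normalized counts as a mean over all libraries with IFN-beta, followed by Rpl19 (3017), Rpl8 (2507), Rpl36 (428) and Rpl28 (271). Rpl28, which budding yeast lacks, was at 219, 270, 207 and 307 in libraries labelled Morrbid-/-, against 143, 185, 147 and 194 in wild type, from 121 to 336 reads per library (0.57, SE 0.13; limma adjusted p = 0.00413). Rpl36 was at 164, 219, 155 and 255 in libraries labelled Morrbid-/-, against 144, 141, 99.3 and 134 in wild type (0.59, SE 0.15; limma adjusted p = 0.00953). Neither overlapped between genotypes. Rpl19, which helps to bridge the subunits, averaged 2639 ± 535 in libraries labelled Morrbid-/- and 1893 ± 466 in wild type (SD, n = 4 each; 0.49, SE 0.13), and Rpl8, near the peptidyl transferase centre, averaged 2360 ± 383 in libraries labelled Morrbid-/- and 1907 ± 235 in wild type (SD, n = 4 each; 0.30, SE 0.09). Both overlapped between genotypes. In all of these 4 large subunit genes, the highest library was replicate 4 labelled Morrbid-/-.

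**Figure D4:**
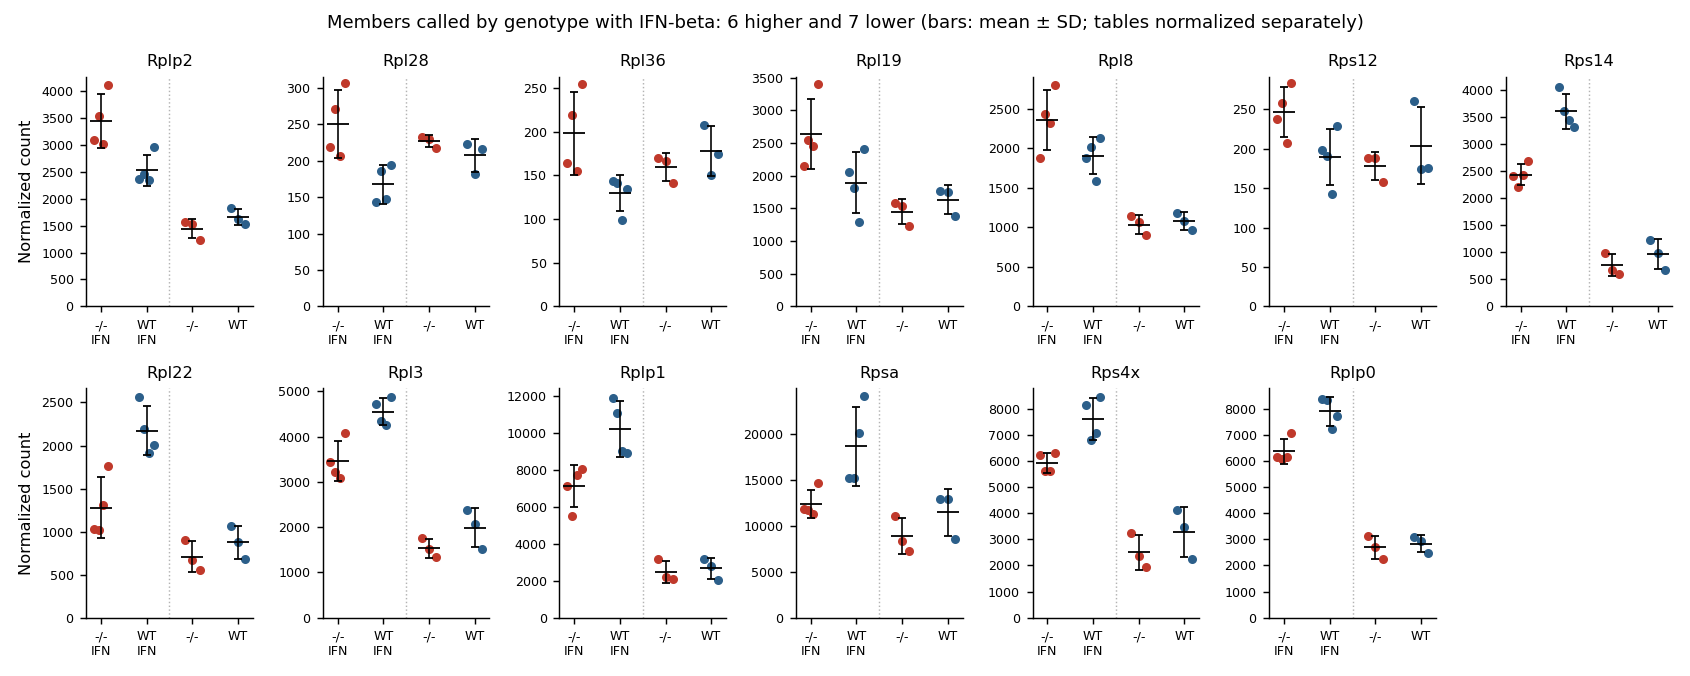
Normalized counts (y axis, from 0) of the 6 members called higher and 7 of those called lower with the smallest p with IFN-beta; each point is a library, bars give the mean and SD, red marks libraries labelled Morrbid-/- and blue wild type, with IFN-beta (left of the dotted line, n = 4 each) and without (right, n = 3 each). With IFN-beta the genotypes do not overlap for Rplp2, Rpl28, Rpl36 and all 7 lower genes shown, and overlap for Rpl19, Rpl8 and Rps12.

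How many were called with IFN-beta turned on single wild-type libraries and on the model. Leaving out wild-type replicate 3 gave 3 higher and 27 lower, leaving out wild-type replicate 4 gave 14 higher and 13 lower, and leaving out wild-type replicate 1 gave 4 higher and 11 lower. Over all genes the same cases gave 472 higher and 397 lower of 9975, 555 and 466 of 9976, and 364 and 322 of 9969. The median over the members was -0.17, 0.05 and -0.05 in these cases. Rpl19 did not pass without wild-type replicate 3, nor by DESeq2, and Rpl8 and Rps12 were lost in 6 of the 8 cases with a library left out. Rps14, Rpl22, Rpl3, Rplp1, Rpsa, Rps4x and Rplp0, all lower, passed in every one of them. The median within each library was -0.09, -0.08, -0.14 and 0.17 in those labelled Morrbid-/-, against 0.12, -0.02, -0.24 and 0.25 in wild type, so replicate 4 of both genotypes and wild-type replicate 1 lay high. Without the mean-variance trend, 0 members were higher and 3 lower, against 171 and 134 of 9964 genes. With the 16S share as a covariate, 15 members were higher and 11 lower, against 387 and 362 of 9964 genes, and the median over the members was 0.08.

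The genotype difference itself was then compared between the settings. Of 80 members, 1 had a genotype difference that was larger with than without IFN-beta, and 0 had a smaller one, against 0.441% and 0.892% of 9078 genes. This was Rplp2, whose difference of 0.44 with IFN-beta is given above. Without IFN-beta it was at 1561, 1526 and 1236 in libraries labelled Morrbid-/-, against 1822, 1621 and 1536 in wild type, a difference of -0.21 (SE 0.11) that did not pass. The change in the difference was 0.65 (SE 0.15; limma adjusted p = 0.0161). It did not pass without wild-type replicate 1 or without Morrbid-/- replicate 3 of the setting without IFN-beta, nor without the mean-variance trend. Neither the 17 lower nor the other 5 higher members with IFN-beta passed this test, which does not show that their difference was the same in both settings. The 17 lower members lay between -0.41 and -0.07 without IFN-beta and the 6 higher ones between -0.21 and 0.13.

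Smaller groups within the family are given by their counts, to be read against the 5.25% higher and 4.84% lower of all genes with IFN-beta and the 7.5% and 21.2% of the whole family. Rpl5 and Rpl11, which with 5S rRNA bind the p53 regulator Mdm2, had 0 called by genotype in either setting, with changes of -0.18 and 0.27 with IFN-beta and -0.41 and -0.19 without it. Of the 9 members mutated in Diamond-Blackfan anaemia, a human failure of red cell production, 1 was called with IFN-beta (Rps7, lower) and 0 without it. Among the 25 that host small nucleolar RNAs in their introns, 2 were higher and 6 lower with IFN-beta, shares close to those of the family. Of 7 paralogues with restricted expression, 4 were listed and 3 tested; Rpl22l1 was lower with IFN-beta, Rpl7l1 and Rps27l were not called. Rps6, the substrate of S6 kinases downstream of mTORC1, was at 1407, 1421, 1365 and 2259 with IFN-beta in libraries labelled Morrbid-/-, against 2043, 1703, 1575 and 2137 in wild type (-0.23, SE 0.12; limma adjusted p = 0.221).

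Of 15 translation factors and partners outside the family that are known for the same pyrimidine run, 5 rose with the 16S share without IFN-beta (Tpt1, Eif3e, Npm1, Naca and Eef1b2; slopes of 0.11, 0.10, 0.09, 0.07 and 0.06) and 0 fell, with a median slope of 0.03, where 2.03% of all genes rose and 0.667% fell around a median of 0.00. With IFN-beta, 3 of the 15 were lower in libraries labelled Morrbid-/- and 0 higher, against 4.84% and 5.25% of all genes: Eif3e, a subunit of initiation factor eIF3 (-0.50, SE 0.07; limma adjusted p = 1.74e-05), Npm1, which takes part in ribosome assembly (-0.26, SE 0.07), and the elongation factor Eef1a1 (-0.24, SE 0.06). Gnb2l1, an older symbol of Rack1, a scaffold on the small subunit, was also lower with IFN-beta (-0.22, SE 0.07; limma adjusted p = 0.0328). It rose with the 16S share without IFN-beta (slope 0.08). Of 6 noncoding hosts of small nucleolar RNAs tested, such as Gas5, 0 were called for genotype or slope in either setting. Among the ribosomal proteins of mitochondria, which nuclear genes encode, 1 of 72 rose with the 16S share without IFN-beta (Mrpl35, 0.10) and 0 fell, with a median slope of 0.01, and 1 of 75 was lower by genotype with IFN-beta (Mrpl30, -0.40), both shares below those of all genes. With IFN-beta none of these 3 lists had a slope that passed. Slopes lay above 0 there in 56 of the 75 mitochondrial genes (median 0.095), against 49.4% of all genes. They lay above 0 in 5 of the 6 noncoding hosts (median 0.15) and 11 of the 15 translation factors (median 0.05).

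Features of the transcripts are given as descriptions, with no test, since genes are not independent replicates. The median GC content was 56.8% in the 6 higher members with IFN-beta, 52.5% in the 17 lower and 50.7% in the 57 not called. Across all tested genes with a transcript (9012 of 9925 with a symbol) the genotype change with IFN-beta had a Spearman rho of 0.26 with GC content, and across the 80 members it was 0.15. The part of GC content in these calls was not tested. The share of 75-base stretches also found in other genes had a median of 59.3% in the higher, 52.9% in the lower and 44.1% in the other members. Members with a pyrimidine run had a median slope of 0.06 on the 16S share without IFN-beta and those without a run 0.06 (43 and 17 genes). With IFN-beta the medians were 0.17 and 0.12.

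Over all 14 libraries, with values centred on their group means, 75 of 80 members had a Pearson r above 0.5 with the median of the members, and their r ran from 0.34 to 0.97 with a median of 0.86. That median is taken over these same 80 genes, so part of their r is built in. Over the non-members the median r was -0.01. The non-members most like that median, among 8998 genes, were Cd3g, a chain of the T cell receptor complex (r = 0.97), Dnajc8 (0.96), Naca, the nascent polypeptide chaperone (0.94), Cox5b of the respiratory chain (0.94), Pak1ip1 (0.93), Slfn2 (0.93), Scarna6 (0.93), Ppib (0.92), Klk8 (0.92) and Ttc33 (0.92). These r describe libraries that share their depth and their 16S share, and carry no test.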

How the data were processed

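Total RNA of sorted CD8 T cells was sequenced as stranded, paired 75-base libraries, per the labels' protocols. The authors deposited 2 tables of normalized counts, here called a signal because the values are not whole, 1 per setting. Tools listed in the submitters' processing notes are DESeq2, featureCounts, STAR 2.5 and Trimmomatic, with mm10 and GRCm38 as builds and no roles; strand setting, annotation and treatment of reads with several matches: not given in the sources used here. In each library the deposited signal values were all multiples of a smallest step, and divided by it they were whole to within 0.01 (100% of values); depth and the 16S share were taken from these reads.

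Members and gene lists were chosen with earlier results of these data known. limma 3.58.1 (R 4.3.3) was fitted, with its mean-variance trend, to log2(normalized count + 1) over all genes of a table with a mean of at least 10, which gave 9964 genes with and 9290 without IFN-beta, and Benjamini-Hochberg adjusted p-values had a threshold of 0.05. Fold changes on this scale are Morrbid-/- minus wild type and understate the change of low genes. A slope on the percent of reads in 16S rRNA was fitted with genotype beside it. The change of the genotype difference was the interaction contrast of 1 fit of 14 libraries over 9078 genes. Members named were those called with up to the 8 smallest p in a direction (or, where under 3 passed, the 3 smallest p), the 4 smallest p per direction for slopes, the 4 most and 3 least abundant per kilobase, members of the smaller lists, members with a library apart, and the 10 non-members most like the members' median; results of some genes that this rule names are not reported here. Other settings were pseudocounts of 0.5 and 5, a filter at a mean of 50 or none, equal totals with or without mitochondrial rRNA, quantile normalization, no trend, the 16S share as a covariate, the replicate number as a block, edgeR 4.0.16 and DESeq2 1.42.0 on recovered reads, and leaving out each library. The fits were tested on simulated data.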

Additional observations from a re-analysis of the deposited data

Results flagged for a closer look

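In groups of 4 libraries, 1 library was examined for standing apart from the other 3 in 82 groups of values with IFN-beta (levels of the named members in each genotype, and the member share, the 16S share and the ratio of small to large subunit genes), and 8 stood apart, where about 1 in 20 groups does so by chance. Replicate 4 labelled Morrbid-/- was the high one in 5 of them. There the members took 2.83% of reads, against 2.39% to 2.42% in the other 3 libraries labelled Morrbid-/-. In the same library Rplp0 was at 7072 normalized counts (6073 to 6165 in the other 3), Rps6 at 2259 (1365 to 1421), Rps13 at 396 (261 to 274) and Rps27l at 24.6 (14.7 to 15.3). Wild-type replicate 4 was high for Rps13, at 343 (280 to 282 in the other 3), and for Rpl7l1, at 584 (431 to 442). Rpl7l1 was low in replicate 2 labelled Morrbid-/-, at 418 (446 to 450). The genotype difference of Rplp2 differed between the settings, by 0.65 on the log2 scale (limma adjusted p = 0.0161 for the interaction).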

How the results depend on the processing

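Without IFN-beta, the count of members lower in libraries labelled Morrbid-/- was 0 in the reported fit, 3 with the 16S share as a covariate and 0 to 9 with a library left out, and the members higher were 0 throughout. With IFN-beta, the members higher (6) numbered 0 without the trend, 15 with the 16S covariate and 3 to 14 with a library left out, and the members lower (17) numbered 3, 11 and 11 to 27. The change of the genotype difference (1 member, Rplp2) gave 0 without the trend, 4 with the 16S covariate and 0 to 1 with a library left out. The members whose slope on the 16S share passed without IFN-beta (53) numbered 34 with equal totals, 0 without the trend and 24 to 61 with a library left out. With IFN-beta the count (0) was 11 by DESeq2 and 0 to 7 with a library left out. Whether the replicate numbers pair the libraries could not be decided from the values. Not every same-numbered pair correlated above 0.1 in its deviations (0.00 to 0.14 with and -0.02 to 0.20 without IFN-beta). Among libraries labelled Morrbid-/-, replicates 1, 3 and 4 with IFN-beta correlated best with the wild-type library of their own number. Replicates 1 and 3 without IFN-beta did so too, and replicate 2 of each setting did not. With the replicate block the counts above were 24 lower without IFN-beta, 14 higher and 25 lower with it, 13 for the change of the difference, and 10 with and 0 without IFN-beta for the slopes. Over all genes the block called 75 of 9290 lower without IFN-beta, and 730 higher and 691 lower of 9964 with it. For the change of the difference it called 148 of 9078 genes higher. For the slopes 19 genes rose with and 9 without IFN-beta. The block took the median slope to 0.11 with IFN-beta (0.16 as reported) and to 0.02 without it (0.06 as reported), with 68 and 50 of 80 members above 0 (79 and 76 as reported). Of the single members named, 582 values under other settings kept their direction and call, 41 no longer passed, 17 newly passed and 15 turned in sign. Those that turned are slopes near 0. Without IFN-beta they were Rps13 (0.0927 with the replicate block, 0.00377 without the genotype term, -0.0169 to 0.0195 with a library left out), Rps27l (0.042 with the block, -0.122 to 0.0124 with a library left out), Rps28 (0.00898 without the genotype term, 0.00326 by edgeR, -0.0461 to 0.093 with a library left out) and Rps29 (-0.0400 to 0.00997 with a library left out), and with IFN-beta Rpsa (0.0192 with quantile normalization, 0.138 without the genotype term, -0.0914 to 0.234 with a library left out). The difference in 16S share without IFN-beta, -1.07 percentage points, ran from -3.28 to 0.342 with a library left out. The cause of these changes was not tested. Pseudocounts, the filter and the other scalings changed no count of members called at an adjusted p by more than 1.5 times. At an unadjusted p under 0.05, the 19 members without IFN-beta became 12 with a filter at a mean of 50 and 12 with quantile normalization, and the 9 genes of all called lower became 5 with that filter. Low counts limit Rps27l and Rps28, with 135 and 126 reads in all 6 libraries without IFN-beta.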

Other observations

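Messages encoded by the mitochondrial genome did not move together along the 16S share without IFN-beta. Of 8 tested, COX1, a subunit of cytochrome c oxidase, rose with it (slope 0.06 per percentage point, SE 0.01; limma adjusted p = 0.00366), ND4, a subunit of complex I, fell (-0.05, SE 0.01; limma adjusted p = 0.0125), and the median slope was 0.00. With IFN-beta, 9 of 9 tested had a slope above 0, against 49.4% of all genes, with a median of 0.18. There 8 rose at an unadjusted limma p under 0.05, against 4.48% of all genes, and 0 passed after adjustment. With IFN-beta, the small ribosomal RNA of mitochondria (Rnr1, 12S) had 15308, 23253, 18847 and 34000 reads in libraries labelled Morrbid-/-, against 8816, 9380, 8194 and 17736 in wild type. Its genotypes overlapped, since wild-type replicate 4 lay above replicate 1 labelled Morrbid-/-. Its log2 change was 0.81 (SE 0.17; limma adjusted p = 0.00257), a direction opposite to the difference of the 16S share, which was 9.70% ± 0.63 in libraries labelled Morrbid-/- and 10.5% ± 1.1 in wild type (SD, n = 4 each).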
